A study of Mus musculus with 4 samples.

Results

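The genes that write, keep and remove methyl groups on DNA cytosine were followed in mouse embryonic stem cells (ES cells) in which Mtf2 was targeted by RNA interference. The set has 9 genes, taken as every array feature annotated to Dnmt1, Dnmt3a, Dnmt3b, Dnmt3l, Uhrf1, Tet1, Tet2, Tet3 or Tdg. It holds 17 of the 45220 features. Transcripts of E14 cells, a mouse ES cell line, were measured with 1-colour arrays of Cy3-labelled cRNA. The Mtf2 RNAi arm had 2 arrays, from cells given pSuper plasmids with Mtf2 hairpin 3 or hairpin 1. The control arm had 2 arrays, from cells given pSuper with a luciferase hairpin (luciferase is an insect enzyme that ES cells lack) or the empty pSuper vector. All cells carried a plasmid, and puromycin selection started 1 day after transfection and lasted 2 days at 1 mg/ml, as the labels state it. Each plasmid has 1 array, so p-values measure the spread between arrays of different plasmids, which may be technical.

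Methylation of cytosine at CG dinucleotides (CpG) is copied after DNA replication by Dnmt1, which Uhrf1 brings to hemimethylated DNA. Dnmt3a and Dnmt3b methylate new sites, and Dnmt3l, which has no catalytic activity of its own, stimulates them in germ cells and ES cells. The Tet dioxygenases oxidise 5-methylcytosine, and Tdg excises the most oxidised bases, so that repair can restore an unmodified cytosine. Mtf2 belongs to the accessory subunits of PRC2, the Polycomb complex that methylates histone H3, and binds unmethylated CpG-rich DNA.

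CpG content near the start sites was read from RefSeq promoters of the mouse build GRCm38.p6, because it is the sequence feature that both DNA methylation and Mtf2 act on. All 9 genes matched, with 16 annotated starts, some of which overlap. In the 250 bases upstream of a start, the motif CG, which reads the same on both strands, was present in 92.1% of 32851 promoters, with a median of 6 copies. Of the members' starts, 12 had more than the median. The 3 promoters below include the member start with the most copies and one just below the median, with each CG in capitals, read 5′ to 3′ along the gene. They are Tet2 (minus strand, chr3:133544391-133544640), 1 of the 2 starts of Uhrf1 (plus strand, chr17:56304063-56304312) and 1 of the 3 starts of Dnmt3l (plus strand, chr10:78042037-78042286).
Tet2: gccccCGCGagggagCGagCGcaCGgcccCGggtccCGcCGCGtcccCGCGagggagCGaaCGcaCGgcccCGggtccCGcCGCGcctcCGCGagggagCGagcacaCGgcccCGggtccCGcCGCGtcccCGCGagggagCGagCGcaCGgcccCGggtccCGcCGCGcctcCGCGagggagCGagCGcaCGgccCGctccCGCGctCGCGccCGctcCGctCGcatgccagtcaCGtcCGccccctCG
Uhrf1: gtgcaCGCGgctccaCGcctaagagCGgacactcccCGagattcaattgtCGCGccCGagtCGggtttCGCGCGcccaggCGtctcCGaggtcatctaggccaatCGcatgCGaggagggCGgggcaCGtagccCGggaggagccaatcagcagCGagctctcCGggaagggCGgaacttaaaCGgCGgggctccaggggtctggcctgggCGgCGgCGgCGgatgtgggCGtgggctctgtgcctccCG
Dnmt3l: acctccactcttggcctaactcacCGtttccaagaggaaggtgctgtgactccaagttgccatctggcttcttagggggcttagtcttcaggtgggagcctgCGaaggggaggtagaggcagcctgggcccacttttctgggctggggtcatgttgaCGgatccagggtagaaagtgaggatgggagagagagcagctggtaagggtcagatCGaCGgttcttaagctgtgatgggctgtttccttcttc

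The Tet2 promoter held 51 CG copies, a number reached by 0.067% of all promoters. Uhrf1 held 30 at the start shown (reached by 5.94%) and 10 at its other start. Dnmt3l lay below the median of 6, with 5, 4 and 3 copies at its starts. The 5 at the start shown was reached by 55.6% of all promoters. Dnmt3a had 38, 40 and 15 copies, Dnmt3b 21, Tdg 19, Tet3 17 and Tet1 15. The starts of Dnmt1 had 2, 7 and 26, and that with 2 was the lowest of the 16. The arrays do not measure methylation or Mtf2 binding, so these counts describe sequence only.

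Intensities below are in scaled units: each array was brought to a common 75th percentile of 23.0 units, and values under 1 unit were set to 1 before log2 was taken. The median feature stood at 6.86 units. Of all features, 35102 were tested with limma, a linear model with a spread shared across features, and p was adjusted by the Benjamini-Hochberg method. Log2 levels of different arrays correlated with Pearson r of 0.945 to 0.979 over those features, and the empty-vector array was the least like the others. It also had 1681 positions whose neighbours deviated by over 0.5 log2, against 8 to 23 on the other arrays. All 7 ES cell markers (Pou5f1, Sox2, Nanog, Zfp42, Dppa5a, Utf1, Esrrb) stood above the median feature on every array. They summed to 7622 and 9081 units with Mtf2 hairpins 3 and 1. With the luciferase hairpin and the empty vector the sums were 7176 and 9915 units. Dppa5a and Zfp42 were the brightest, and Utf1 read only 28.7 to 48.2 units. Nanog was above both controls in both Mtf2 RNAi arrays (0.86 log2, SE 0.39). Esrrb (-0.29, SE 0.24) and Utf1 (-0.40, SE 0.29) were below both, and the other markers overlapped. None of these markers passed the test. The 8 fibroblast and feeder cell markers summed to only 77.7 and 82.2 units in the Mtf2 RNAi arm, and to 99.0 and 118.6 units in the control arm. Among them Col3a1, Lum, Dcn and Postn stayed under 2 units throughout, and Col1a1 and Col1a2 read at most 9.86 units. The sums rest mostly on Thy1 (27.9 to 41.4 units) and Pdgfrb (31.8 to 57.6 units). This fibroblast sum was lower in both Mtf2 RNAi arrays, and its part in the members' values was not tested. The 4 endoderm markers summed to 37.3 and 32.8 units with Mtf2 RNAi, against 31.4 and 34.3 units in controls. In such bulk RNA, fewer cells of a type and less RNA per cell cannot be told apart.

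The target came first. On 3 of its 4 features Mtf2 was lower in both Mtf2 RNAi arrays than in both controls, by 0.78 to 1.08 log2. The brightest feature differed by 0.19 log2 in the other direction. There both Mtf2 RNAi values lay between the controls, which read 737 units (luciferase hairpin) and 175 units (empty vector). The sign therefore hung on the control kept: -0.85 log2 against the luciferase array alone and 1.23 log2 against the empty-vector array alone. None of the 4 passed the test (limma adjusted p of 0.868 for those 3 and 0.954 for the brightest).

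Across the 9 genes, no change passed the test when Mtf2 was targeted. All 17 features were tested, and 0 had an adjusted p under 0.05 (limma, adjusted p of 0.868 to 0.994). Over all features the share was 0%. One of the 17, on Uhrf1, had an unadjusted p under 0.05 (limma), against 4.18% of all features. Which features fell under 0.05, and how many, depended on the processing. The Uhrf1 p was 0.057 with arrays scaled to a common median and 0.076 with all arrays given the same distribution (limma). In both of those settings the 1 feature under 0.05 was on Tet2 instead. Without the filter on dim features, or without the intensity trend of limma, 0 were under 0.05. The difference was positive for 6 features and negative for 11, with a median of -0.10 log2, where all tested features had a median of -0.01. Without the hairpin 1 array the split was 10 positive and 7 negative. Both Mtf2 RNAi arrays lay above both controls on 3 of the 17 features, against 14.7% of all features, and below both on 3, against 17.5%. These shares are close to the background, with counts this small. An exact permutation test of 2 arrays against 2 cannot give a two-sided p under 0.333, so none was run.

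**Figure D1:**
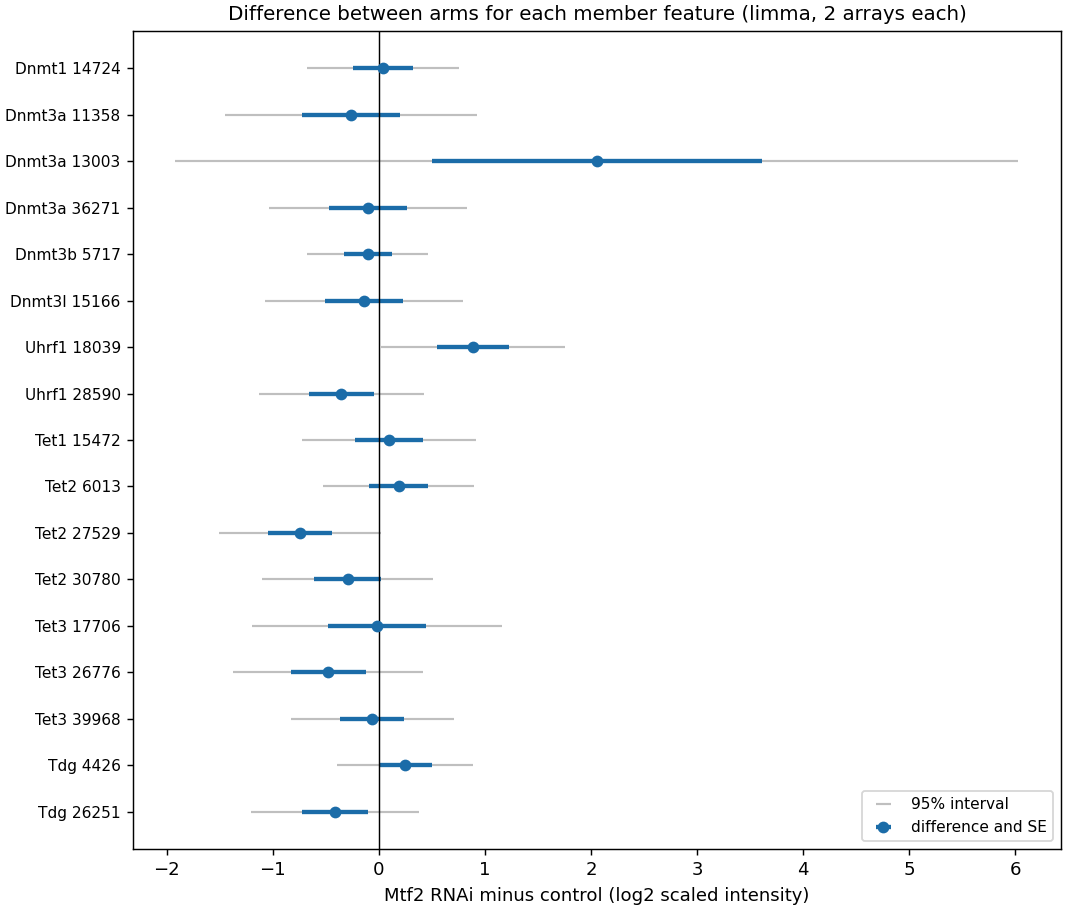
Difference between arms (Mtf2 RNAi minus control, log2 scaled intensity, horizontal axis) for each of the 17 member features (vertical axis), with the SE as a thick bar and the 95% interval of limma as a thin one. Of the 17 intervals, only that of Uhrf1 feature 18039 lies wholly on one side of 0, and Dnmt3a feature 13003 has by far the widest, from -1.92 to 6.03.

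Maintenance methylation was represented by Dnmt1 and Uhrf1. Dnmt1, on its 1 feature, read 168 and 165 units with Mtf2 hairpins 3 and 1, against 131 units with the luciferase hairpin and 201 units with the empty vector. Both Mtf2 RNAi values fell between the controls. The difference was 0.04 log2 (SE 0.28, n = 2 each, limma adjusted p = 0.979), and its 95% interval ran from 0.624-fold to 1.69-fold of control.

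Uhrf1 has 2 features, and they disagreed. Feature 18039 read 839 and 476 units with Mtf2 hairpins 3 and 1, against 356 units with the luciferase hairpin and 328 units with the empty vector. The arms did not overlap, and hairpin 3 stood well above hairpin 1. The difference was 0.89 log2 (SE 0.34), or 1.85-fold with a 95% interval of 1.02 to 3.37, and it did not pass over all features (limma adjusted p = 0.868). Without hairpin 1 it was 1.30 log2, and without hairpin 3 it was 0.48. On feature 28590 the values were 180 and 127 units with Mtf2 hairpins 3 and 1, against 231 units with the luciferase hairpin and 161 units with the empty vector. Here the arms overlapped, and the difference was -0.35 log2 (SE 0.30, adjusted p = 0.868). Averaged over both features, Uhrf1 differed by 0.27 log2 (SE 0.30, adjusted p = 0.890).

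The gap of 1.24 log2 between the differences of the Uhrf1 features was wide but not rare on these arrays. Among 2489 genes with exactly 2 features above the median level, the median gap was 0.38 log2, and 8.60% had a gap at least as wide as that of Uhrf1. In 49.9% of those genes the 2 features differed in sign. Among the members, features differed in sign for 4 of the 5 genes with more than 1 feature, and for 3 without the Dnmt3a feature at the low edge of the empty-vector array described below. The bases are unlike, because Dnmt3a, Tet2 and Tet3 have 3 features each and member features below the median level are counted too.

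The genes most like Uhrf1 feature 18039, by Euclidean distance between centred log2 values over the 4 arrays among the 10362 other genes above the median level, were Dnajb11 (distance 0.150), Phlda2 (0.166) and Srgn (0.167). Dnajb11 encodes a co-chaperone of the endoplasmic reticulum, Phlda2 is an imprinted growth regulator of the placenta, and Srgn encodes the proteoglycan serglycin. Dnajb11 read 797 and 426 units with Mtf2 hairpins 3 and 1, against 367 units with the luciferase hairpin and 304 units with the empty vector. None of them passed the test (limma adjusted p = 0.868 each), and a likeness over 4 arrays is only a description. With features laid out in rows of 85, Dnajb11 (row 54) and Srgn (row 55) lie next to each other in column 17. Uhrf1 feature 18039 itself (row 213, column 19) and Phlda2 (row 422, column 52) lie in distant rows. The part of array position in this likeness was not tested.

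**Figure D2:**
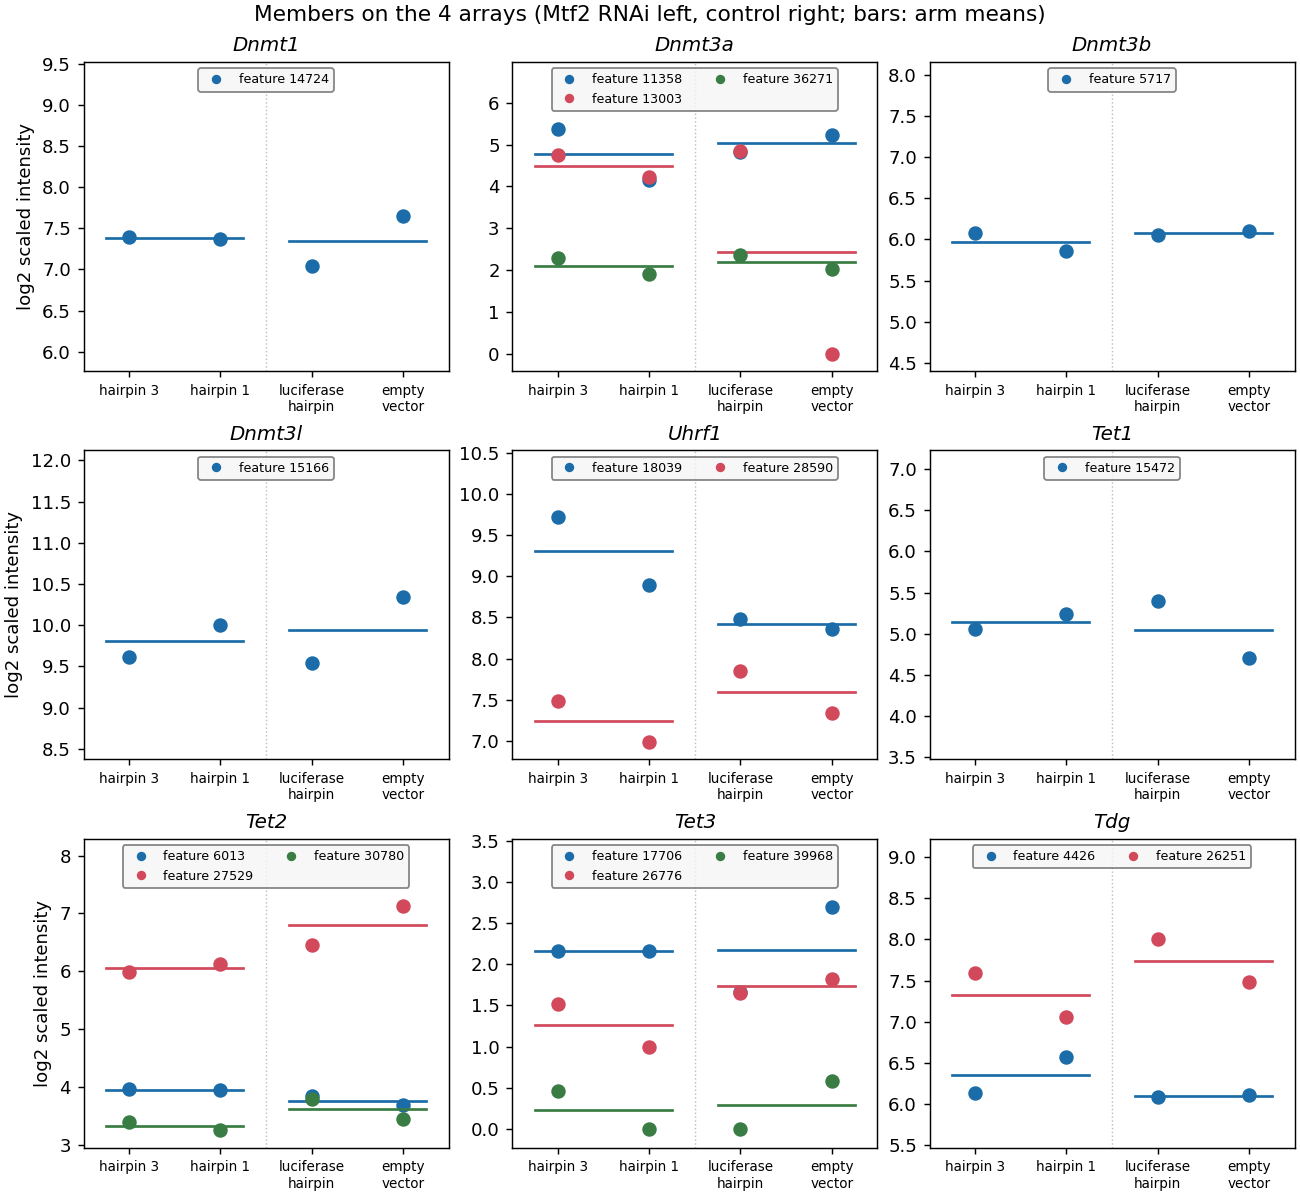
Log2 scaled intensity (vertical axis) of each member gene on the 4 arrays (horizontal axis), with Mtf2 RNAi arrays left of the dotted line and controls right of it, 1 colour per feature and a bar at each arm's mean. Points separate by arm on Uhrf1 feature 18039, Tet2 features 27529, 6013 and 30780, Tet3 feature 26776 and Tdg feature 4426. The empty-vector point of Dnmt3a feature 13003 lies alone at 0.

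Among the de novo enzymes and their cofactor no feature passed the test, and 4 of their 5 features had small negative differences, the fifth being decided by 1 array as given below. Dnmt3b, on 1 feature, read 67.8 and 58.0 units with Mtf2 hairpins 3 and 1, against 66.3 units with the luciferase hairpin and 68.5 units with the empty vector. All 4 values were close together, and the difference was -0.10 log2 (SE 0.22, limma adjusted p = 0.926). The 95% interval ran from 0.627-fold to 1.38-fold of control.

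Dnmt3l, the cofactor, read 783 and 1024 units with Mtf2 hairpins 3 and 1, against 747 units with the luciferase hairpin and 1302 units with the empty vector. The controls were the highest and the lowest of the 4 values, so the arms overlapped. The difference was -0.14 log2 (SE 0.37, adjusted p = 0.933), and it turned to 0.26 without the empty-vector array.

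Dnmt3a was read by 3 features. Feature 11358 gave 41.6 and 17.9 units with Mtf2 hairpins 3 and 1, against 28.5 units with the luciferase hairpin and 37.6 units with the empty vector. The hairpins lay on either side of both controls, and the difference of -0.26 log2 (SE 0.46, adjusted p = 0.921) averages over that split. The dim feature 36271 read 4.86 and 3.73 units against 5.15 and 4.06 units in the same order, a difference of -0.10 log2 (SE 0.37).

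Feature 13003 of Dnmt3a had the largest difference among the members, and 1 array decided it. It read 27.1 and 18.6 units with Mtf2 hairpins 3 and 1, against 29.1 units with the luciferase hairpin and 0.700 units with the empty vector. The empty-vector value alone was low, under the floor of 1 unit. The feature lies in column 83 of 85, and its neighbours on the empty-vector array stood at -1.07 log2 from the 4-array median, the only member position of this kind. The difference was 2.06 log2 (SE 1.56, adjusted p = 0.868) with that array and -0.37 log2 without it. Its size also depends on the floor, at 1.06 log2 with a floor of 4 units. At the other 16 member positions the neighbours on the empty-vector array deviated by -0.11 to 0.34 log2.

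Among the oxidising enzymes, Tet2 had the most negative difference of the set, on 1 of 3 features. Feature 27529, which is annotated to a cDNA clone record, read 63.2 and 69.8 units with Mtf2 hairpins 3 and 1, against 87.9 units with the luciferase hairpin and 140.5 units with the empty vector. Both hairpins were low and close to each other, and the arms did not overlap. The difference was -0.74 log2 (SE 0.30), or 0.597-fold with a 95% interval of 0.351 to 1.02 (limma adjusted p = 0.868). It was -0.41 log2 without the empty-vector array and -1.08 without the luciferase array.

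The features annotated to the Tet2 mRNA did not share that size of difference. Feature 6013 read 15.6 and 15.4 units with Mtf2 hairpins 3 and 1, against 14.4 units with the luciferase hairpin and 12.9 units with the empty vector. It stood slightly above both controls, at 0.19 log2 (SE 0.28, adjusted p = 0.906). Feature 30780 read 10.6 and 9.54 units against 13.9 and 10.9 units in the same order, slightly below both, at -0.29 log2 (SE 0.32, adjusted p = 0.876). Averaged over its 3 features, Tet2 differed by -0.28 log2 (SE 0.21, adjusted p = 0.877).

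Tet1, on 1 feature, read 33.2 and 37.8 units with Mtf2 hairpins 3 and 1, against 42.2 units with the luciferase hairpin and 26.0 units with the empty vector. The Mtf2 RNAi values lay between the controls, with a difference of 0.10 log2 (SE 0.32, adjusted p = 0.948). It was -0.25 log2 without the empty-vector array.

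Tet3 was dim on all 3 features, which stood below the median feature. Feature 17706 read 4.47 units with each Mtf2 hairpin, against 3.17 units with the luciferase hairpin and 6.47 units with the empty vector, and its difference was -0.02 log2 (SE 0.46). Feature 26776 read 2.87 and 1.99 units with Mtf2 hairpins 3 and 1, against 3.13 and 3.53 units in the same controls, below both, at -0.48 log2 (SE 0.35, adjusted p = 0.868). Feature 39968 lay at or near the floor, with hairpin 1 and the luciferase hairpin under 1 unit, and gives no usable order.

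Tdg, the glycosylase that removes oxidised cytosines, has 2 features annotated to different mRNA records. Feature 26251 read 193 and 133 units with Mtf2 hairpins 3 and 1, against 256 units with the luciferase hairpin and 179 units with the empty vector. The arms overlapped, at -0.42 log2 (SE 0.31, adjusted p = 0.868). Feature 4426 read 70.2 and 95 units against 68.2 and 69.4 units in the same order, above both controls by a small margin, at 0.25 log2 (SE 0.25, adjusted p = 0.873). Without hairpin 1 that difference was 0.03 log2, and without hairpin 3 it was 0.47. The gap between their differences was 0.66 log2, reached by 26.2% of the 2-feature genes.

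The spread within each arm was set beside the difference between arms. Over the 17 features the median size of the arm difference was 0.25 log2, that of hairpin 3 minus hairpin 1 was 0.39, and that of the luciferase hairpin minus the empty vector was 0.52. Over all tested features these medians were 0.26, 0.32 and 0.33. The first is a difference of means of 2 arrays and the others of single arrays, so they are not on an equal footing. Hairpin 3 and hairpin 1 were at least 1 log2 apart on 1 member feature, Dnmt3a feature 11358 (1.22), against 7.9% of all features. The luciferase hairpin and the empty vector were that far apart on 2, Dnmt3a feature 13003 (4.86) and Tet3 feature 17706 (-1.03), against 9.96% of all features. These differences between single arrays have no replicate check.

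**Figure D3:**
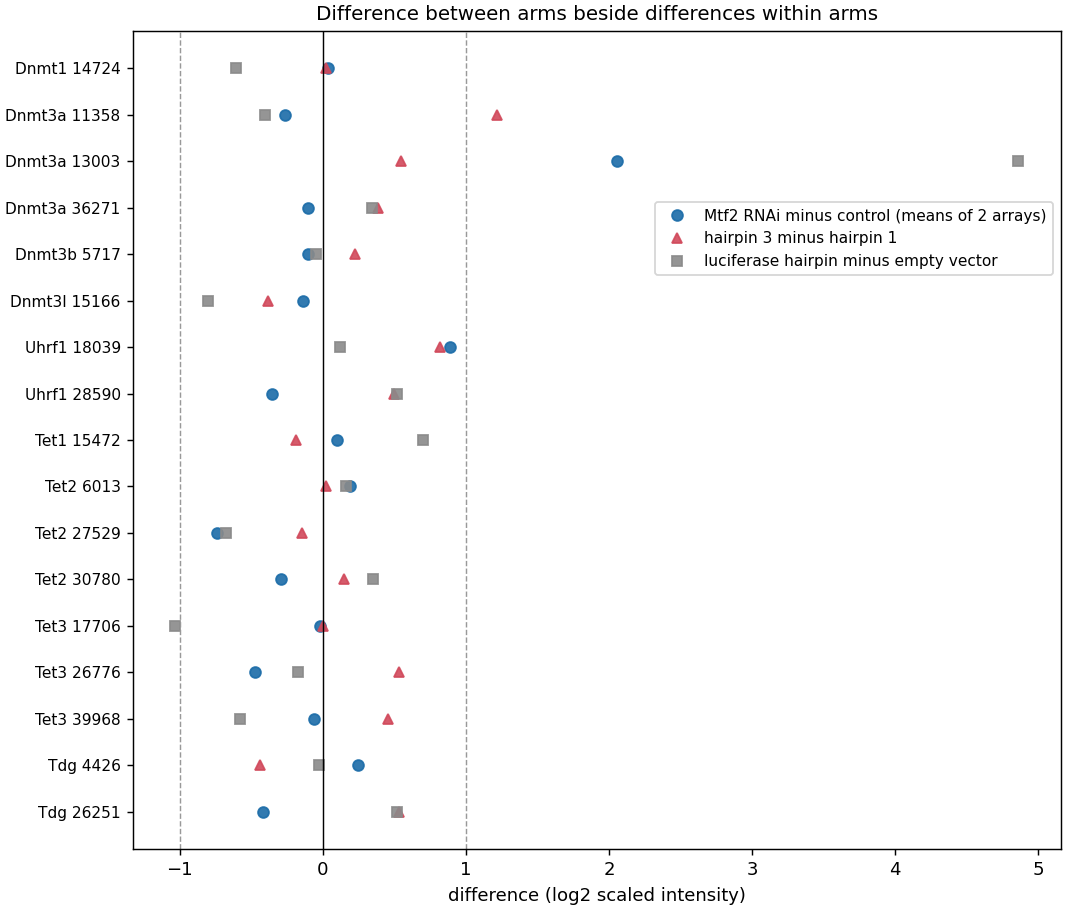
For each member feature (vertical axis), the difference between arms (circles), hairpin 3 minus hairpin 1 (triangles) and the luciferase hairpin minus the empty vector (squares), in log2 scaled intensity (horizontal axis), with dashed lines at 1 log2 in either direction. Past the dashed lines lie 1 triangle, 2 squares and the circle of Dnmt3a feature 13003.

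**Figure D4:**
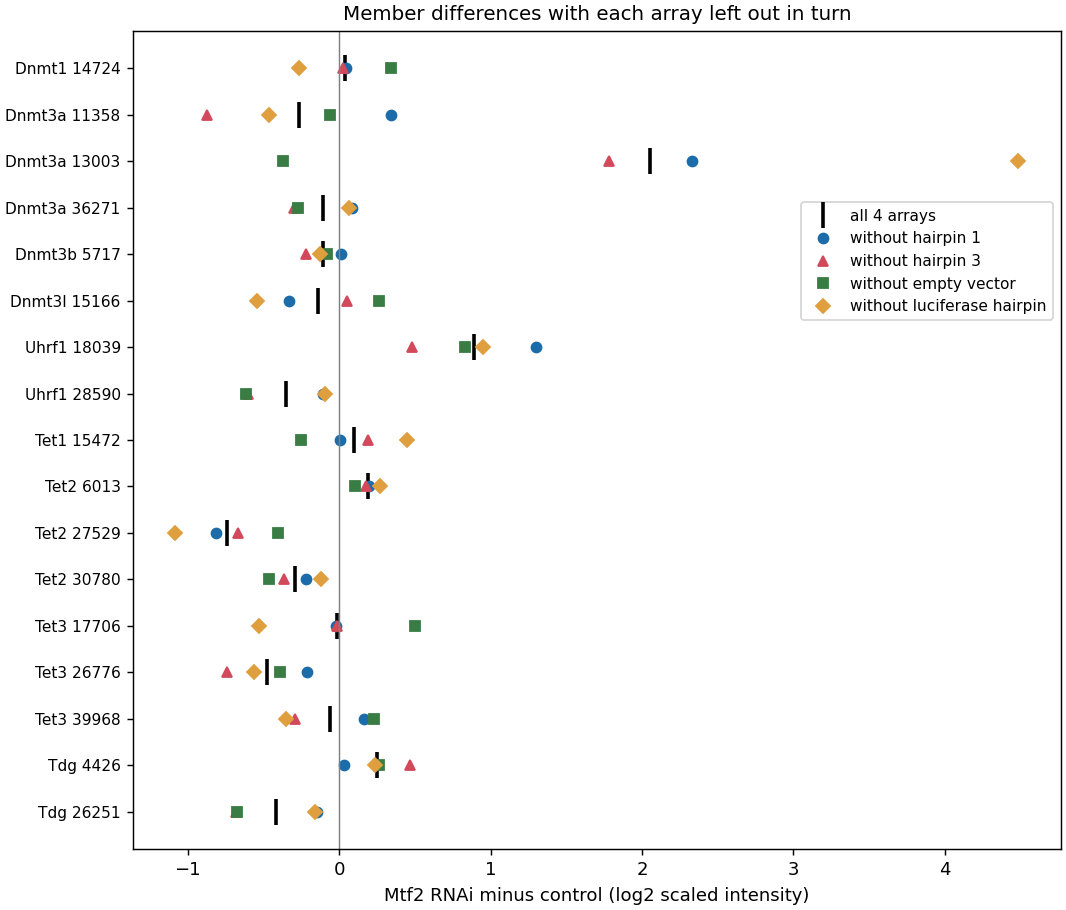
Mtf2 RNAi minus control (log2 scaled intensity, horizontal axis) of each member feature with all arrays (vertical tick) and with each array left out (symbols). Uhrf1 feature 18039 stays between 0.48 and 1.30 and Tet2 feature 27529 between -1.08 and -0.41, while Dnmt3a feature 13003 spans -0.37 to 4.49.

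Partner genes of the pathway were examined in 5 lists, with 1 feature (the brightest) per gene. No list member passed the test in either direction (0 of 74 genes, limma). Over all 16764 named genes the median difference was -0.01 log2, with 8250 positive and 8514 negative.

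Readers and partners of DNA methylation had 9 positive and 9 negative differences of 18 measured genes, with a median of 0.00. Cdca7, a partner of the remodeller Hells in maintaining methylation, read 101 and 98.4 units with Mtf2 hairpins 3 and 1, against 138 units with the luciferase hairpin and 214 units with the empty vector (-0.78 log2, SE 0.29). Zbtb4, a methyl-CpG binding zinc finger protein, read -0.50 (SE 0.27), and Pcna, the replication clamp, 0.58 (SE 0.34).

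Repair enzymes and deaminases of active demethylation had 6 positive and 11 negative differences of 17, with a median of -0.02. The arms were separate for 6 in the negative direction and for 1 in the positive, Xrcc1, a repair scaffold (0.45 log2, SE 0.25). Over all 16764 named genes the arms were separate for 3067 in the negative direction and 2523 in the positive. The 6 were Mbd4, Ung, Apobec3 and the 3 Gadd45 genes, stress genes linked to demethylation. Gadd45a stood at -0.20 log2 (SE 0.22) and Gadd45g at -0.30 (SE 0.24). Gadd45b read 41.7 and 51.4 units with Mtf2 hairpins 3 and 1, against 86.1 units with the luciferase hairpin and 67.1 units with the empty vector (-0.72 log2, SE 0.26). Mbd4, a thymine glycosylase, read -0.90 (SE 0.56), and -0.08 without the empty-vector array. Its controls were far apart, at 31.5 units with the luciferase hairpin and 97.6 units with the empty vector.

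Tet partners and cofactor supply had 5 positive and 7 negative differences of 12, with a median of -0.07. Ogt, the sugar transferase that binds Tet proteins, stood at -0.01 log2. Cxxc5, a CXXC zinc finger protein, read -0.25 (SE 0.25), with -0.49 without the empty-vector array and -0.016 without the luciferase array. Wt1 (0.51, SE 0.28) and the vitamin C transporter Slc23a1 (-0.28, SE 0.25) were below 2 units on every array.

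The S-adenosylmethionine cycle, which supplies the methyl groups, had 6 positive and 5 negative differences of 11, with a median of 0.11. Ahcy, which clears the product inhibitor S-adenosylhomocysteine, read 754 and 418 units with Mtf2 hairpins 3 and 1, against 379 units with the luciferase hairpin and 311 units with the empty vector (0.71 log2, SE 0.35). Its difference was 0.28 log2 without hairpin 3 and 1.13 without hairpin 1. Bhmt read -0.71 (SE 0.44), below 4 units on every array, with -0.19 without hairpin 3 and -1.23 without hairpin 1. Shmt1, a serine hydroxymethyltransferase, read 2.99 (SE 2.02), with the empty-vector array under the floor at a position where neighbours were low too, and -0.21 without that array.

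A list of genes known as targets of promoter methylation, most of them germline genes, had 10 positive and 6 negative differences of 16, with a median of 0.08. On these arrays 13 of the 16 stood above the median feature, as did 10363 of all 16764 named genes on their brightest features. Both Mtf2 RNAi arrays lay above both controls for 5 of them and below both for 2, where all 16764 named genes gave 2523 and 3067. Sycp3, of the meiotic chromosome axis, read 182 and 176 units with Mtf2 hairpins 3 and 1, against 142 units with the luciferase hairpin and 117 units with the empty vector (0.48 log2, SE 0.22). Taf7l read 0.58 (SE 0.27) and the piRNA pathway gene Asz1 -0.86 (SE 0.37).

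**Figure D5:**
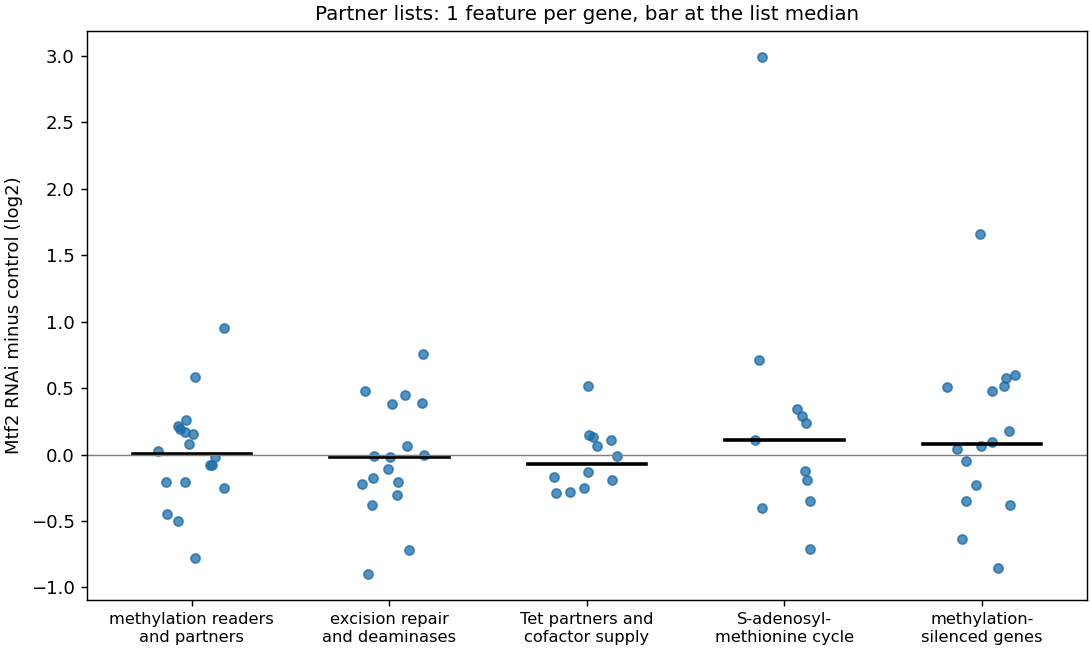
Mtf2 RNAi minus control (log2, vertical axis) for the measured genes of the 5 partner lists (horizontal axis), 1 point per gene and a bar at each median. The medians lie between -0.07 and 0.11, and the point near 3 is Shmt1.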

How the data were processed

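The deposited intensity of each array feature was used, on a linear scale. Per the labels' protocols, Cy3-labelled cRNA was made with an Agilent one-colour kit. No source used here gives the scanner, background method or normalization, and values down to -1.8 show that a background was subtracted.

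Arrays were brought to the same 75th percentile, values under 1 unit were raised to 1, log2 was taken, and 10118 of 45220 features at that floor on all 4 arrays were left out. Arms were compared over the other 35102 with limma 3.58.1 (intensity trend) in R 4.3.3, tested on simulated data. For arrays, their number limits the precision. Features were named through the platform annotation of 33709 features (33653 with 1 symbol, 56 with several, left unnamed).

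Every member feature is named. For each partner list, the 3 smallest p are named, and a few other genes were chosen after their values were seen. Positions were taken in rows of 85, and neighbours from a square 7 features wide. Members and lists were chosen with earlier results of these data known. Scaling, floor, filter, trend, position and each array were varied.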

Additional observations from a re-analysis of the deposited data

How the results depend on the processing

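No member feature passed the test under any alternative tried, and over all features the count stayed at 0 except without the filter on dim features, where 36 were called (limma). The mean level of those 36 was at most 1.46 units, 0 were members, and the cause was not tested. At an unadjusted p under 0.05 (limma) the count was 1467 in the main setting and 646 to 2142 under the alternatives that kept all 4 arrays. These counts are over unlike numbers of features. The 646 came from testing only features above the median level, and the 2142 from testing all 45220 features.

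The sign of 3 member differences turned with the processing. Dnmt1 read -0.025 log2 with arrays scaled to a common median, Tet3 feature 17706 read 0.0025 without scaling, and Dnmt3a read 0.56 as the mean of its features, which includes feature 13003 at its low empty-vector position beside 2 negative ones. Leaving out 1 array, where the lone array of an arm is assumed to vary like the others, turned further signs. The ranges were -0.27 to 0.34 for Dnmt1, -0.87 to 0.34 for Dnmt3a feature 11358, -0.37 to 4.49 for Dnmt3a feature 13003, -0.30 to 0.086 for Dnmt3a feature 36271, -0.22 to 0.0091 for Dnmt3b and -0.54 to 0.26 for Dnmt3l. They were -0.25 to 0.45 for Tet1, -0.53 to 0.50 for Tet3 feature 17706, -0.35 to 0.23 for Tet3 feature 39968, -0.85 to 1.23 for Mtf2 feature 321 and -0.21 to 6.19 for Shmt1. Differences that kept their sign but also moved by over 1.5 times ranged from -0.61 to -0.094 for Uhrf1 feature 28590, -0.68 to -0.15 for Tdg feature 26251, -0.47 to -0.12 for Tet2 feature 30780, -0.74 to -0.21 for Tet3 feature 26776, -1.10 to -0.46 for Cdca7 and 0.27 to 0.89 for Pcna, among others. The number of member features with a positive difference was 5 to 7 under the other settings and 6 to 10 with an array left out. That count was added after seeing the data.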
